A study of Mus musculus with 24 samples.

Results

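The mitochondrial carrier family, SLC25, was examined in the gastrocnemius, a calf muscle of mostly fast fibres, of 24 male C57BL/6J mice. Its members were taken as every protein-coding gene whose symbol starts with Slc25a, which gave 47 of the 55487 genes in the tables. Of these, 38 passed the filter on low values and were tested. The muscle was collected after 8 days from 3 groups of 8 mice, with 1 library of poly-adenylated RNA per mouse. Uncasted mice had free hindlimbs and received sterilized water by intraperitoneal injection 2 times a day for the 8 days. Casted mice had both hindlimbs immobilized in casts for the 8 days and received the same water injections. Casted mice with MOTS-c had the same casts and received MOTS-c, a short peptide whose reading frame lies in a ribosomal RNA gene of mitochondrial DNA, at a dose of 15 mg/kg/day on the same schedule. The labels give an age of 12 weeks for all mice, and the design text gives 10 weeks at assignment. All mice were injected, so no group shows the muscle without injections, and no uncasted group received MOTS-c.

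SLC25 carriers are small proteins, almost all of the mitochondrial inner membrane, that exchange or import metabolites the membrane would otherwise hold back. The adenine nucleotide carriers bring ADP in and ATP out, the phosphate carrier brings in the phosphate that ATP synthase needs, and other members move intermediates of the citric acid cycle, amino acids, acylcarnitines, cofactors and iron. In working muscle the exchange of ADP and ATP across this membrane links the respiratory chain to contraction.

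The values are transcripts per 1000000 (TPM), a share of a library's total after correction for transcript length, and sequencing depth cannot be read from them. A trimmed mean of log ratios was used to scale the libraries to each other, and a level below is this scaled TPM unless the deposited scale is named. Between uncasted and casted libraries the choice of scale matters for direction. As deposited, casted libraries exceeded uncasted ones by a log2 of 0.39 at the median gene, and by 0.01 after scaling. For the comparison of MOTS-c with casting alone these medians were -0.07 and -0.00497. Changes are differences in log2(scaled TPM + 1), which understates changes of low genes, with the standard error (SE) and the Benjamini-Hochberg adjusted p from limma over 14690 genes. A gene was called when its adjusted p was under 0.05. Mitochondrially encoded transcripts made up 20.5 to 22.3% of the TPM in uncasted libraries, 13.9 to 17.1% in casted libraries and 15.3 to 20.3% in those with MOTS-c. Casted replicates 5 to 8 stood apart from casted replicates 1 to 4, with 13.89 to 15.36% against 16.08 to 17.06%, and the labels name no batch that separates them.

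Levels within the family spanned a wide range. Slc25a4, which encodes the adenine nucleotide carrier of heart and muscle, held a median of 55.1% of the family's summed TPM in uncasted libraries. The phosphate carrier Slc25a3 held 17.5%. In uncasted muscle 5 of the 38 tested carriers had a mean of at least 100 scaled TPM, namely Slc25a4, Slc25a3, Slc25a12, Slc25a11 and Slc25a25. Another 17 lay between 10 and 100 and 16 between 1 and 10, down to Slc25a45 at 1.21 ± 0.29 (SD, n = 8). The 9 carriers that did not pass the filter were Slc25a2, Slc25a13, Slc25a18, Slc25a21, Slc25a31, Slc25a41, Slc25a43, Slc25a48 and Slc25a54. Slc25a54 was listed at 0 in all 24 libraries. Slc25a13 encodes citrin, the aspartate-glutamate carrier of liver, and its deposited TPM lay between 0.03 and 0.65.

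As deposited, the summed TPM of the family was lower after casting, and the sum without Slc25a4 was not. The whole sum had a median of 3115 in uncasted libraries (lowest 2998, highest 3296), 2518 in casted libraries (2328 to 2594) and 2451 in libraries with MOTS-c (2375 to 2652). Every casted library lay below every uncasted library on this scale. Without Slc25a4, the other 46 carriers summed to a median of 1405 in uncasted libraries (1311 to 1489), 1470 in casted libraries (1423 to 1666) and 1441 with MOTS-c (1317 to 1538), and these ranges overlapped. In bulk muscle, fewer cells of a type and less RNA per cell cannot be told apart. On the scaled values the medians of the whole sum were 3938, 2139 and 2224. There the next largest carriers were also called lower with casting, Slc25a3 by -0.37, Slc25a12 by -0.72 and Slc25a11 by -0.78 on the log2 scale. The sum without Slc25a4 is given as deposited only, so it does not show that Slc25a4 alone fell. Within the family, the share of Slc25a4 had a median of 39.4% in casted libraries and 41.5% with MOTS-c, and that of Slc25a3 had medians of 24.6% and 23.9%. These shares do not depend on scaling between libraries.

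**Figure D1:**
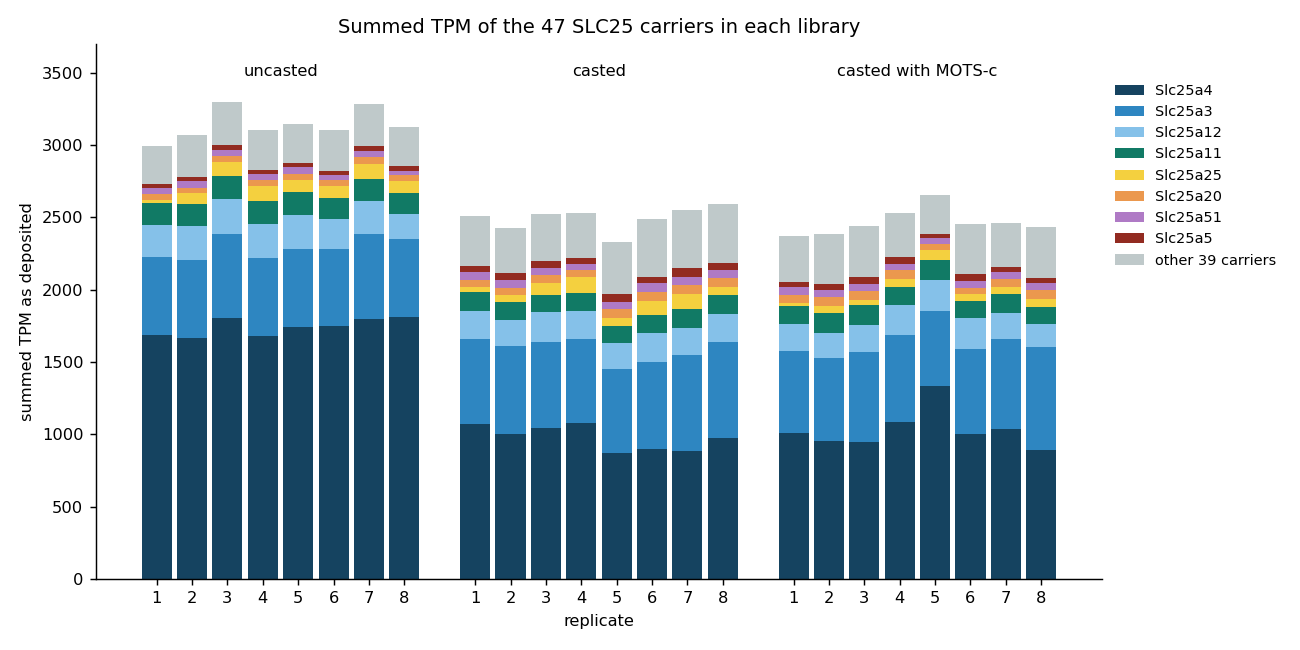
Summed TPM of the 47 SLC25 carriers in each of the 24 libraries, as deposited, with the 8 carriers named in the legend drawn separately and the remaining carriers in grey. The bars of all 16 casted libraries, at most 2652, end below the lowest uncasted bar at 2998, and the Slc25a4 segment is shorter in all 16 than in any uncasted library.

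Casting lowered more carriers than it raised on the scaled values. Of the 38 carriers tested, 5 rose and 19 fell, and 14 were not called. Over all genes tested, 28.7% were called higher and 27.7% lower, so the share of carriers called lower was above the background and the share called higher was below it. The median change of the 38 carriers was -0.24, beside 0.01 for all genes. By more than 1.5-fold, 2 carriers rose (background 9.97%) and 9 fell (background 9.33%). All casted libraries lay above all uncasted libraries for 2 carriers (background 11.5%) and below them for 12 (background 10.9%).

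The deposited scale moved this balance. There 20 carriers were called higher (background 62.2%) and 7 lower (background 7.43%), with a median change of 0.23 beside 0.39 for all genes. The 5 rises, of Slc25a28, Slc25a38, Slc25a33, Slc25a1 and Slc25a44, were called on both scales (background 28.7%). The falls called on both scales were 7 (background 7.42%), among them those of Slc25a30, Slc25a4, Slc25a23, Slc25a11, Slc25a12 and Slc25a35. Slc25a3, Slc25a16, Slc25a36 and Slc25a51 were called lower on the scaled values and higher on the deposited ones (background 3.44%).

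**Figure D2:**
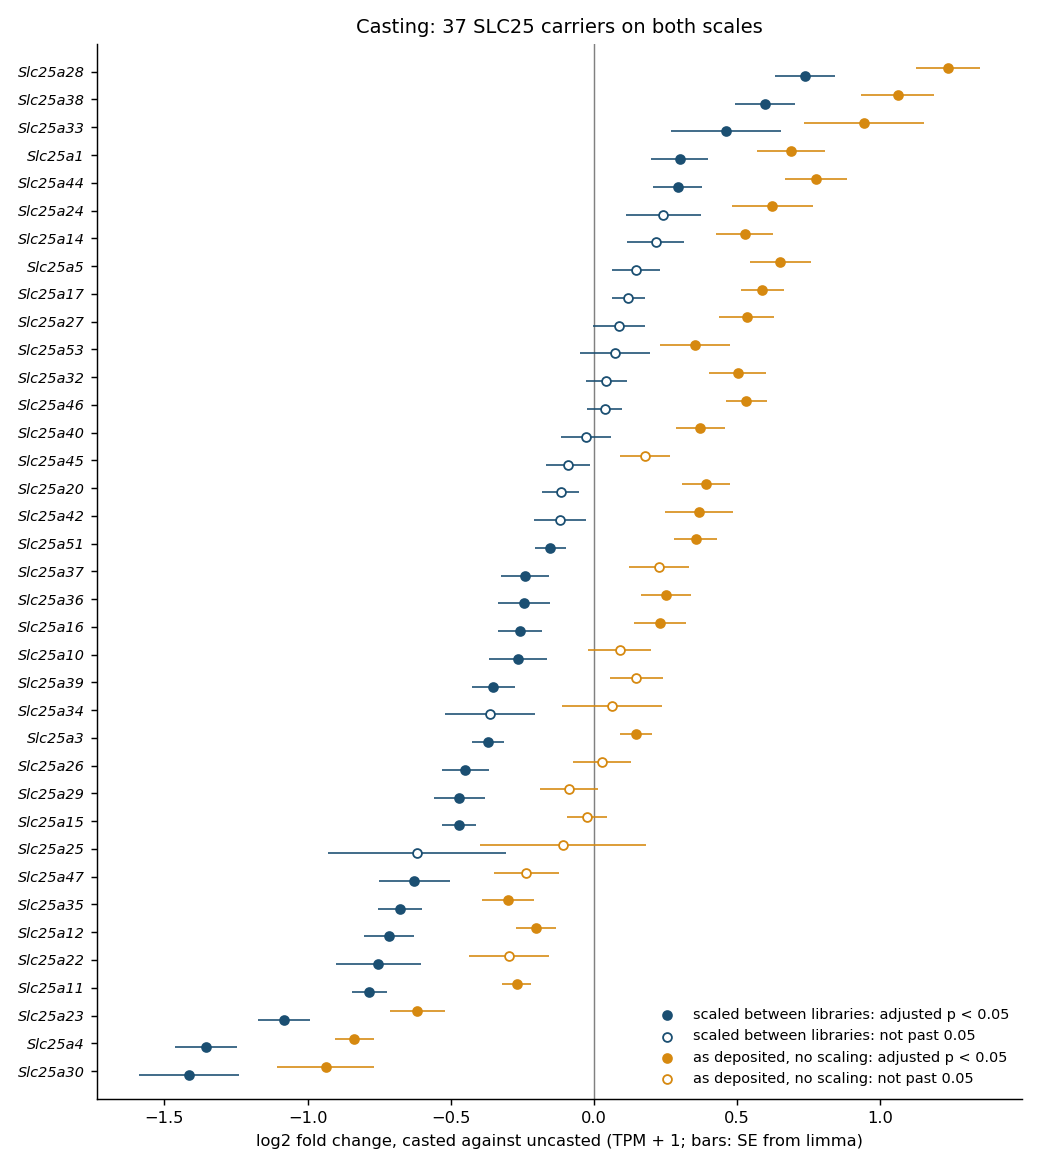
Log2 fold change of casted against uncasted libraries for 37 of the 38 tested carriers (8 libraries a group), with the scaled values in blue and the deposited TPM in orange. Bars are the SE from limma and filled points have an adjusted p under 0.05. Each orange point lies to the right of its blue one, and 5 carriers at the top and 6 towards the bottom are filled on the same side of 0 on both scales.

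Slc25a4 and its close relative Slc25a5 encode the adenine nucleotide carriers ANT1 and ANT2. ANT1 is the form of heart and skeletal muscle, and ANT2 is the form of many dividing cells. The coding sequences of both genes are 897 bases long and 77.48% identical, and their longest identical run is 20 bases. The stretch below is coding bases 673 to 750 of each gene, read from the GRCm38 transcripts, Slc25a4 at chr8:46206797-46211284 on the minus strand and Slc25a5 at chrX:36795651-36798807 on the plus strand. It is shown because the capitals mark the arginine and methionine codons of the adenine nucleotide carrier signature, where 15 of 18 bases are identical between the genes, and 64 of 78 over the whole stretch.
Slc25a4: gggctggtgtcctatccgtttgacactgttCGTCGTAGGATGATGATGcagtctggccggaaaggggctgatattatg
Slc25a5: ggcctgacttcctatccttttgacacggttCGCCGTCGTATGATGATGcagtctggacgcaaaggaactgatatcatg
The genome also holds 5 processed pseudogenes with over 90% identity to Slc25a5, among them Gm5529, Gm5560 and Slc25a5-ps. The sources used here do not state how reads were divided between Slc25a5 and these copies, and the highest TPM of Gm5560, 0.75, bounds what was assigned to any of them.

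Slc25a4 had the second largest fall of the family with casting. Its level ran from 1963 to 2481 with a median of 2143 in uncasted libraries, from 714 to 1079 with a median of 852 in casted libraries, and from 783 to 1499 with a median of 926 in libraries with MOTS-c. All casted libraries lay below all uncasted ones, with and without MOTS-c, and also on the deposited scale. The mean fell from 2176 ± 161 to 857 ± 127 (SD, n = 8), a change of -1.35 ± 0.11 (SE, limma adjusted p = 3.36e-10). As deposited, the change was -0.84 (adjusted p = 1.79e-10).

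Slc25a5, in contrast, was not called lower. It ran from 32.0 to 40.0 with a median of 37.5 in uncasted libraries and from 34.6 to 49.3 with a median of 40.7 in casted libraries, and these ranges overlapped. The change was 0.15 ± 0.08 (limma adjusted p = 0.144), and on the deposited scale it was 0.65 (adjusted p = 7.19e-06), where every casted library lay above every uncasted one. Whether Slc25a5 rose therefore depended on the scale.

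The ratio of the 2 adenine nucleotide carriers within a library does not depend on the scale. Slc25a4 was 52.5 to 62.3 times as high as Slc25a5 in uncasted libraries, with a median of 59.6. In casted libraries the ratio was 14.5 to 30.5, with a median of 20.9, and with MOTS-c it was 18.6 to 47.5, with a median of 24.1. The highest casted ratio lay below the lowest uncasted one. The difference was -1.51 on the log2 scale in an exact two-sided permutation test over the 12870 splits of 2 groups of 8 (p = 0.000155, the smallest this design allows, adjusted p = 0.0014 over 27 ratio tests).

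The phosphate carrier Slc25a3, which also carries copper, changed less. Its level was 640 to 732 with a median of 692 in uncasted libraries, 488 to 585 with a median of 538 in casted libraries and 490 to 629 with a median of 548 with MOTS-c. The casted libraries lay below the uncasted ones without overlap on the scaled values. The mean fell from 687 ± 28 to 532 ± 34 (SD, n = 8), a change of -0.37 ± 0.06 (SE, limma adjusted p = 4.32e-06). As deposited TPM the change was 0.15 in the other direction (adjusted p = 0.0201), so the direction for Slc25a3 depended on the scale.

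Of the calcium-regulated carriers of ATP-Mg and phosphate, which adjust the size of the adenine nucleotide pool in the matrix, only Slc25a23 was called with casting on the scaled values. Slc25a23 was 11.4 to 16.0 with a median of 14.1 in uncasted libraries, 4.77 to 8.22 with a median of 5.77 in casted libraries and 4.95 to 8.03 with a median of 6.24 with MOTS-c. Its uncasted libraries overlapped neither casted group on either scale, and the change with casting was -1.08 ± 0.09 (limma adjusted p = 9.65e-10). Slc25a24 ran from 2.24 to 3.55 in uncasted libraries and from 2.40 to 4.92 in casted libraries, and its change was 0.24 ± 0.13 (adjusted p = 0.115). Slc25a24 was called on the deposited scale, at 0.62 (adjusted p = 0.000397). The related carrier Slc25a41 did not pass the filter.

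Slc25a25, the most abundant of these ATP-Mg carriers here, varied most between mice. It ran from 25.0 to 126 with a median of 113 in uncasted libraries, from 28.3 to 111 with a median of 63.2 in casted libraries, and from 19.6 to 80.1 with a median of 46.2 with MOTS-c. The groups overlapped, and the low uncasted value came from replicate 1, while the other 7 uncasted libraries lay at 90.5 or above. The change with casting was -0.62 ± 0.31 (limma adjusted p = 0.0934). Without uncasted replicate 1 it was -0.88 (adjusted p = 0.00502), and without casted replicate 4 it was -0.74 (adjusted p = 0.0466). The promoter of Slc25a25 is taken up again below.

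**Figure D3:**
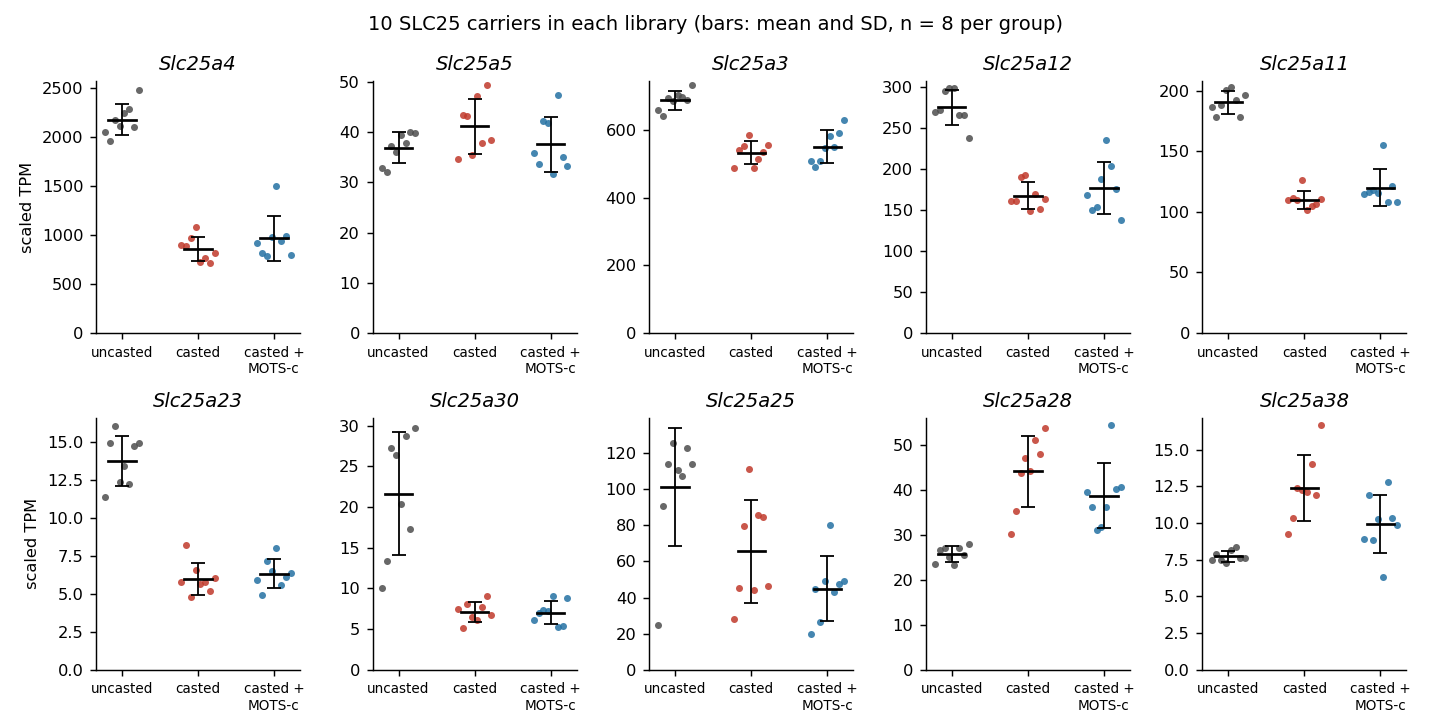
Scaled TPM of 10 carriers in each library, with the mean and SD of each group of 8. Slc25a4, Slc25a3, Slc25a12, Slc25a11, Slc25a23 and Slc25a30 show casted points entirely below the uncasted ones and Slc25a28 and Slc25a38 entirely above, while Slc25a5 and Slc25a25 overlap. The single low uncasted point of Slc25a25 is at 25.0, and the high point of Slc25a4 with MOTS-c is at 1499.

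Among the 13 carriers of dicarboxylates, tricarboxylates and amino acids, 9 were tested, and all 9 were called with casting on the scaled values. Of these, 3 were higher (background 28.7%) and 6 lower (background 27.7%), with a median of -0.47. As deposited, 3 were higher (background 62.2%) and 2 lower (background 7.43%). Slc25a12 (aralar, the aspartate-glutamate carrier) and Slc25a11 (the oxoglutarate-malate carrier) are the 2 carriers of the malate-aspartate shuttle, which moves reducing equivalents from the cytosol into the matrix. Slc25a12 ran from 238 to 300 with a median of 271 in uncasted libraries, from 149 to 194 with a median of 162 in casted libraries and from 138 to 236 with a median of 173 with MOTS-c. Slc25a11 ran from 178 to 203, from 102 to 127 and from 108 to 155, with medians of 190, 110 and 116. Neither gene's casted range reached its uncasted range. Casting changed Slc25a12 by -0.72 ± 0.09 (limma adjusted p = 2.12e-07) and Slc25a11 by -0.78 ± 0.06 (adjusted p = 3.02e-10), and both were also called lower on the deposited scale, by -0.20 and -0.27. Slc25a11 overlaps Rnf167 on the other strand by 245 bases, and the sources used here do not say whether strand was kept.

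The malate-aspartate shuttle and the separate glycerol phosphate shuttle had 6 enzyme genes listed. On the scaled values 6 were called lower (background 27.7%) and 0 higher (background 28.7%). Their median was -0.86, beside 0.01 for all genes. As deposited, 4 were lower (background 7.43%), and Got1 and Got2, the aspartate aminotransferases, were not called. Gpd1, the cytosolic glycerol-3-phosphate dehydrogenase, fell most, by 1.73 on the log2 scale, from 362 ± 24 to 112 ± 34 (SD, n = 8, limma adjusted p = 2.40e-07). Gpd2 changed by -0.94 and Mdh2, the mitochondrial malate dehydrogenase, by -0.86.

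Slc25a22, a glutamate carrier, and the carriers of basic amino acids also fell on the scaled values. Slc25a22 ran from 5.45 to 13.9 with a median of 11.3 in uncasted libraries, from 4.80 to 6.45 with a median of 5.24 in casted libraries and from 5.42 to 9.50 with a median of 7.91 with MOTS-c. The uncasted libraries were spread widely, with replicates 1, 2 and 7 below the others, and overlapped the casted ones. The change was -0.75 ± 0.15 (limma adjusted p = 0.000129), and -0.30 on the deposited scale (adjusted p = 0.0579). Slc25a15, the ornithine carrier of the urea cycle, changed by -0.47 (7.82 to 5.37), Slc25a29, which carries basic amino acids, by -0.47 (3.61 to 2.35), and Slc25a10, the dicarboxylate carrier, by -0.26 (2.62 to 2.01). None of these 3 was called on the deposited scale. The call of Slc25a10 was lost in 4 of the fits that left out 1 library, those without uncasted replicate 3 or 8 or casted replicate 6 or 8.

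The other 3 of this group rose on both scales. Slc25a38 imports glycine for the first step of heme synthesis. Its level was 7.30 to 8.37 with a median of 7.60 in uncasted libraries, 9.24 to 16.7 with a median of 12.2 in casted libraries, and 6.32 to 12.8 with a median of 10.1 with MOTS-c. All casted libraries lay above all uncasted ones, and the change was 0.60 ± 0.10 (limma adjusted p = 3.24e-05). Slc25a1 exports citrate for lipid synthesis. It ran from 2.16 to 3.80 with a median of 2.76 in uncasted libraries and from 3.38 to 4.54 with a median of 3.83 in casted libraries, which overlapped, and it changed by 0.30 ± 0.10 (adjusted p = 0.0141). Slc25a44 imports branched-chain amino acids. It ran from 12.4 to 15.9 with a median of 14.4 in uncasted libraries and from 14.9 to 23.6 with a median of 16.7 in casted libraries, which also overlapped, and it changed by 0.29 ± 0.08 (adjusted p = 0.00491).

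The 2 iron carriers, or mitoferrins, supply iron for iron-sulfur clusters and heme. Mitoferrin 2, Slc25a28, had the largest rise of the family. It was 23.3 to 28.0 with a median of 26.1 in uncasted libraries, 30.2 to 53.8 with a median of 45.7 in casted libraries and 31.1 to 54.6 with a median of 37.9 with MOTS-c. No casted library, with or without MOTS-c, fell to the uncasted range on either scale. The change was 0.74 ± 0.11 (limma adjusted p = 2.21e-06), from 25.8 ± 1.7 to 44.2 ± 7.9 (SD, n = 8). Mitoferrin 1, Slc25a37, which is best known from developing red cells, changed by -0.24 ± 0.08 (adjusted p = 0.0164), from 10.4 ± 0.78 to 8.72 ± 1.48, and was not called on the deposited scale (0.23, adjusted p = 0.0577). A protein-coding gene model, Gm16867, is identical to Slc25a37 over 342 bases, and its TPM ran from 2.31 to 5.56.

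Within libraries, Slc25a28 was 2.13 to 2.94 times as high as Slc25a37 in the uncasted group, 2.66 to 7.12 times in the casted group and 2.98 to 6.56 times with MOTS-c. The medians were 2.42, 5.22 and 4.34. Casting shifted this ratio by 1.03 on the log2 scale (exact permutation test, adjusted p = 0.00252), with 1 overlapping casted library, replicate 1. Of 7 erythroid markers, 5 were tested and limma called 0 on the scaled values, while 4 were higher as deposited (background 62.2%). Their summed level ran from 389 to 650 in uncasted, 401 to 615 in casted and 466 to 669 in MOTS-c libraries.

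All 12 carriers of carnitine, cofactors, nucleotides and glutathione were tested. With casting, 1 was called higher (background 28.7%) and 6 lower (background 27.7%) on the scaled values, with a median of -0.14. As deposited, 9 were higher (background 62.2%) and 1 lower (background 7.43%).

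The carnitine-acylcarnitine carrier Slc25a20, which brings long-chain fatty acids to oxidation, was not called on the scaled values. It ran from 43.5 to 56.3 with a median of 53.3 in uncasted libraries, from 41.1 to 52.8 with a median of 48.5 in casted libraries and from 40.7 to 54.4 with a median of 49.4 with MOTS-c. The ranges overlapped, and casting changed it by -0.12 ± 0.06 (limma adjusted p = 0.126). Without uncasted replicate 2 the change was -0.15 (adjusted p = 0.0387), and on the deposited scale it was 0.39 (adjusted p = 0.000211), so its direction depended on the scale. Casted replicates 5 to 8 (49.7 to 52.8) lay above casted replicates 1 to 4 (41.1 to 47.3). Of the 6 genes of the carnitine shuttle beside it, 5 were called lower on the scaled values (background 27.7%). As deposited, 2 were higher (background 62.2%) and 1 lower (background 7.43%). Cpt1b, the muscle carnitine palmitoyltransferase at the outer membrane, changed by -0.54, while on the deposited scale its change was -0.02.

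Slc25a33, a pyrimidine nucleotide carrier linked to mitochondrial DNA upkeep, was the only carrier of this group called higher on the scaled values. It was 9.42 to 14.7 with a median of 12.9 in uncasted libraries, 10.3 to 27.8 with a median of 18.9 in casted libraries and 7.09 to 22.4 with a median of 13.1 with MOTS-c. The ranges overlapped, and the change was 0.46 ± 0.19 (limma adjusted p = 0.0448). This call was lost in 12 of the fits that left out 1 uncasted or casted library (adjusted p up to 0.103), with no filter on low values (adjusted p = 0.0949) and against casted replicates 1 to 4 alone (0.15, adjusted p = 0.619). The related carrier Slc25a36 changed by -0.24 (adjusted p = 0.0239, not called without uncasted replicate 6 or 7), and the ratio of Slc25a33 to Slc25a36 within libraries rose from a median of 0.498 to 0.887 (log2 difference 0.74, exact permutation test, adjusted p = 0.0206).

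The remaining members of this group changed less. Slc25a26, the importer of S-adenosylmethionine, changed by -0.45 (13.98 to 9.99), and Slc25a39, which brings glutathione into the matrix, by -0.35 (31.9 to 24.6). Neither was called as deposited (0.03 and 0.15). Slc25a16 and Slc25a51, the importer of NAD, changed by -0.26 and -0.15. On the deposited scale these last were called higher, at 0.23 and 0.35. Slc25a17, Slc25a32, Slc25a40 and Slc25a42 were not called on the scaled values, with changes from -0.12 to 0.12, although Slc25a17 was called without uncasted replicate 3 or 7. As deposited, all 4 were called higher, at 0.59, 0.50, 0.37 and 0.37.

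Of the 3 carriers most like the uncoupling proteins, Slc25a30 had the largest fall of the whole family. It ran from 10.0 to 29.8 with a median of 23.4 in uncasted libraries, from 5.17 to 9.04 with a median of 7.12 in casted libraries and from 5.22 to 9.06 with a median of 7.12 with MOTS-c. No casted library, with or without MOTS-c, reached the uncasted range on the scaled values, although uncasted replicates 1 and 2, at 10.0 and 13.4, were low for their group. The change was -1.41 ± 0.17 (limma adjusted p = 2.52e-07), and -0.94 on the deposited scale (adjusted p = 2.46e-05). Slc25a27 (0.09) and Slc25a14 (0.21) were not called on the scaled values, and both were called higher as deposited (0.53 and 0.53). Slc25a14 was also called without uncasted replicate 6 or casted replicate 7.

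The uncoupling proteins themselves belong to the same family under other names. Ucp3, the uncoupling protein of skeletal muscle, averaged 196 ± 63 without a cast, 146 ± 42 with a cast and 215 ± 51 with cast and MOTS-c, and neither casting (-0.39, limma adjusted p = 0.117) nor MOTS-c (0.57, adjusted p = 0.271) passed the threshold. Ucp2 was 15.8 ± 2.2, 19.1 ± 3.7 and 28.1 ± 5.2, with changes of 0.26 for casting (adjusted p = 0.0665) and 0.53 for MOTS-c (adjusted p = 0.0826). Mtch2, an outer membrane insertase of the family, rose with casting by 0.41 (adjusted p = 1.07e-05). Of these values only the rise of Mtch2 was called on the scaled values. As deposited, Ucp2 and Mtch2 were called higher with casting, as was Mtch1 of the same list. Casted muscle with MOTS-c had Ucp2 and Mtch2 called higher than uncasted muscle on both scales, and Mtch1 and Ucp3 only as deposited.

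Carriers of less settled substrate numbered 8, of which 5 were tested and 2 were called lower (background 27.7%). As deposited, 1 was lower (background 7.43%), and 1, Slc25a53, was higher (background 62.2%). Slc25a35 ran from 3.37 to 4.80 with a median of 3.60 in uncasted libraries, from 1.55 to 2.48 with a median of 1.88 in casted libraries and from 1.88 to 2.83 with a median of 2.24 with MOTS-c, without overlap between uncasted and casted. Its change was -0.68 ± 0.08 (limma adjusted p = 6.99e-08). This value is uncertain, because Slc25a35 overlaps Rangrf on the other strand by 1882 bases and Rangrf had a median of 38.4 TPM. Slc25a47, known from liver, changed by -0.63 (4.37 to 2.48), and was not called as deposited (-0.24, adjusted p = 0.0683). Slc25a34 changed by -0.36 (adjusted p = 0.0506), and 7 of the fits that left out 1 library (uncasted replicate 2, casted replicate 5, 6, 7 or 8, or MOTS-c replicate 5 or 6) put it on the other side of the threshold. Its levels were 1.94 to 4.26 in casted replicates 1 to 4 and 5.38 to 6.59 in replicates 5 to 8. The outer membrane member Slc25a46, which takes part in mitochondrial shape and lipid exchange, changed by 0.04 (adjusted p = 0.623), and as deposited by 0.53 (adjusted p = 4.73e-07), with every casted library above every uncasted one.

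Ratios between carriers were computed for 9 pairs, most with the same or a close substrate. For casting, 6 of the 9 were called. Beside the pairs described, the ratio of Slc25a20 to Slc25a29 rose from a median of 14.5 to 20.2 (log2 difference 0.52, adjusted p = 0.00909, exact permutation tests throughout). That of Slc25a10 to Slc25a11 rose by 0.41 (adjusted p = 0.0182), and that of Slc25a39 to Slc25a40 fell by 0.33 (adjusted p = 0.0305). The pairs Slc25a23 with Slc25a25, Slc25a24 with Slc25a25 and Slc25a16 with Slc25a42 did not pass the threshold (differences of -0.58, 0.94 and -0.15). Without uncasted replicate 1, the ratio of Slc25a24 to Slc25a25 differed by 1.25 (adjusted p = 0.00599). The call for Slc25a39 and Slc25a40 was lost in 7 of the comparisons that left out 1 library, without uncasted replicate 2, 6, 7 or 8 or casted replicate 3, 4 or 6 (adjusted p up to 0.0648).

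**Figure D4:**
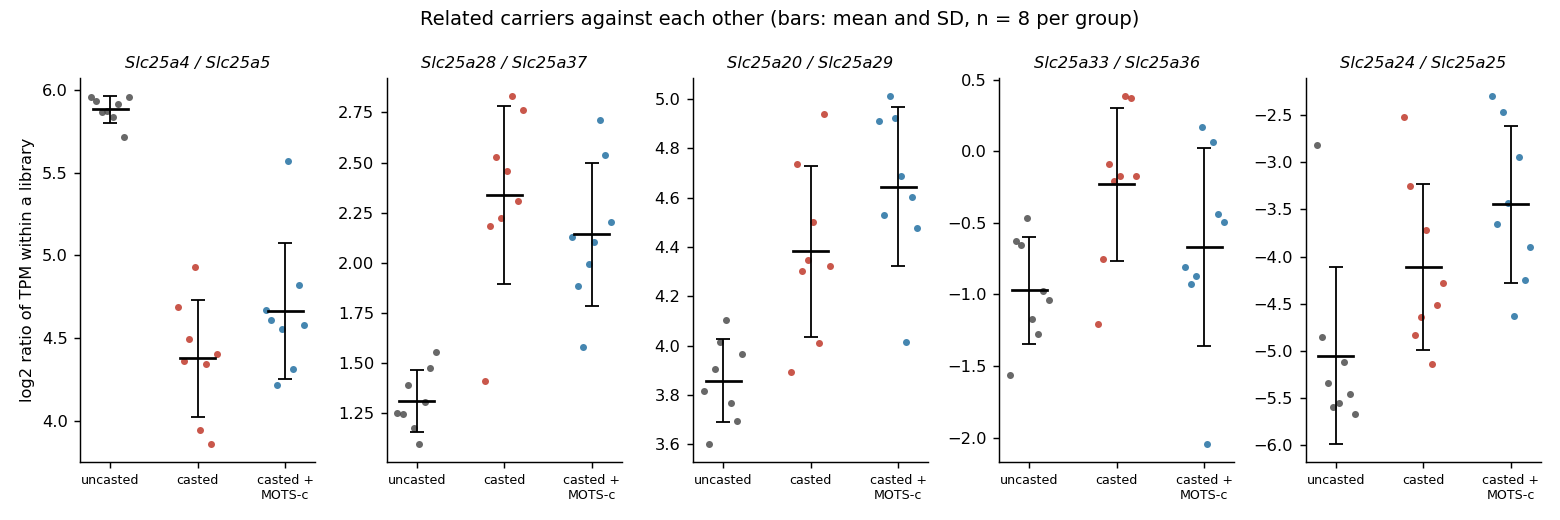
Log2 ratio of the deposited TPM of 2 related carriers within each library, with the mean and SD of the 8 libraries of each group. Each panel has its own vertical axis, which does not start at 0. For Slc25a4 over Slc25a5 every casted point is below every uncasted point, and for Slc25a28 over Slc25a37 only casted replicate 1 reaches the uncasted range.

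Genes that work with the carriers were counted in the same way. ATP synthase, the enzyme served by the adenine nucleotide and phosphate carriers, had 15 tested subunit genes. On the scaled values 15 were called lower (background 27.7%) and 0 higher (background 28.7%), with a median of -0.62. As deposited, 7 were lower (background 7.43%) and 0 higher (background 62.2%). Atp5k, which encodes subunit e, had the largest fall of the 15, -1.33 (-0.82 as deposited). Its casted libraries were spread from 62.1 to 193, below uncasted ones at 247 to 319. Of the 13 genes that import carriers into the inner membrane, 3 were called higher and 4 lower, which is near these backgrounds. As deposited, 11 were higher and 1 lower. Timm22, the channel of the carrier translocase, fell from 26.7 ± 2.5 to 15.1 ± 2.6 (SD, n = 8), a change of -0.79 (limma adjusted p = 6.18e-08), while the small chaperone gene Timm10b rose by 0.52 (adjusted p = 0.000263).

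Mitochondrial transport outside the family showed 1 of 18 genes called higher (background 28.7%) and 10 lower (background 27.7%), with a median of -0.23. As deposited, 9 were higher (background 62.2%) and 1 lower (background 7.43%). Mpc2, a subunit of the pyruvate carrier, changed by -0.83 and Vdac3, a channel of the outer membrane, by -0.58. Micu2, a regulator of the calcium uniporter, was the gene called higher, at 0.49. Of 10 regulators of mitochondrial gene expression, beside the same backgrounds, 1 was called higher and 6 lower, and 4 and 2 as deposited. The 1 called higher was Nrf1, which encodes nuclear respiratory factor 1, and it was called higher as deposited too. Esrra, which encodes the estrogen-related receptor alpha, changed by -1.06 (50.3 ± 3.7 to 23.7 ± 3.3) and was called on both scales. Ppargc1a, its coactivator, changed by -0.67 on the scaled values and -0.18 on the deposited ones (adjusted p = 0.323).

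Promoters were searched for the letters of 3 elements, the first 2 bound by such regulators, and the cyclic AMP element added after values of these carriers were seen. Of the 47 members, 36 matched a gene in the RefSeq promoter table (GRCm38.p6), with 250 bases before and 50 after the start. The element of estrogen-related receptors, TNAAGGTCA on either strand, was in 0 of the 36 members and in 1.43% of all genes in the table. The core of the nuclear respiratory factor 1 site, GCGCANGCG on either strand, was in 2 of the 36 (Slc25a3 and Slc25a31) and in 7.03% of genes. The cyclic AMP response element, TGACGTCA, which reads the same on both strands, was in 2 of the 36 (Slc25a25 and Slc25a36) and in 2.03% of genes. The matches of the tested carriers are shown with 10 bases on each side, the motif in capitals (for Slc25a3 its reverse complement), because their promoters held the letters searched for. All 3 genes are on the minus strand, and the stretches shown lie at chr10:91124162-91124190, chr2:32424199-32424226 and chr9:97111185-97111212. The motifs within them, in capitals, begin 213, 150 and 161 bases before a RefSeq start. For Slc25a25, which has 3 such starts, that is the one farthest downstream, inside the gene at chr2:32414487-32451445.
Slc25a3: tttggatctgCGCCTGCGCagtaggaatc
Slc25a25: ctgcaagcagTGACGTCAgtcctgatct
Slc25a36: gcgaacctcgTGACGTCAcgcggcctaa
A match of letters is not evidence that a factor binds, and these 2 carriers with the same element had changes of -0.62, not called, and -0.24, called, with casting.

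Markers of some other cell types also differed with casting. The counts below stand beside 28.7% of all genes called higher and 27.7% lower, and 62.2% and 7.43% as deposited. Markers of macrophages rose, with 6 of 8 called higher (8 as deposited) and a summed level of 50.6 to 70.1 in uncasted, 71.9 to 165 in casted and 89.7 to 181 in MOTS-c libraries. Those of endothelium were lower in 6 of 6 (2 of 6 as deposited, with 1 higher; 94.5 to 134, then 66.4 to 96.7 and 81.0 to 103). Fibroblast markers were lower in 3 of 5, Col1a1, Col3a1 and Lum, while Dcn and Pdgfra were not called. As deposited, Col1a1 and Col3a1 were lower and Dcn and Pdgfra higher. The fibroblast sums overlapped between groups (489 to 771, then 271 to 718 and 337 to 666). Adipocyte markers had 1 of 7 higher, Retn, and 1 lower, Fabp4 (5 and 0 as deposited). Their sums were 267 to 340, then 187 to 331 and 307 to 436. Skeletal muscle fibre markers had 7 of 8 lower and Myh1 higher (5 lower as deposited), with sums of 154335 to 180109, then 70362 to 110371 and 75811 to 135895. None of these marker genes was at 0 in all libraries of a group, 2 of the 7 erythroid markers did not pass the filter, and the part of these cell types in the carrier changes was not tested.

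MOTS-c was compared with casting alone. Of the 38 carriers, 0 were called higher and 0 lower by limma, on either scale. Among all genes tested, 2 were called higher (0.0136%) and 1 lower (0.00681%), and 1986 genes, among them 4 carriers, had an unadjusted p under 0.05. The median change of the carriers was 0.03 and the changes ran from -0.51 to 0.43. None of the carriers had all MOTS-c libraries on one side of all casted ones. For this comparison the share of all genes without overlap was not computed, so the count shows no trait of the carriers.

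The 4 carriers with an unadjusted p under 0.05 were Slc25a45, Slc25a44, Slc25a22 and Slc25a38. Slc25a45 was 0.91 to 1.28 with a median of 1.05 in casted libraries and 1.23 to 1.96 with a median of 1.59 with MOTS-c, a difference of 0.30 ± 0.08 (limma adjusted p = 0.134). Slc25a44 ran from 13.4 to 16.6 with a median of 14.7 with MOTS-c, below the casted median of 16.7, and differed by -0.26 ± 0.08 (adjusted p = 0.21). Slc25a22 differed by 0.43 ± 0.15 (adjusted p = 0.245) and Slc25a38 by -0.30 ± 0.10 (adjusted p = 0.251). For Slc25a4 the difference was 0.15 ± 0.11 (adjusted p = 0.537), with MOTS-c replicate 5 at 1499 and the other 7 between 783 and 991. The mitochondrially encoded share in that library was also the highest of its group, at 20.3%.

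The result for MOTS-c depended on which casted libraries it was set against. Against casted replicates 1 to 4 alone, limma called 0 carriers, and 0.00681% of all genes in each direction (745 genes at an unadjusted p under 0.05). Against casted replicates 5 to 8 alone, 1 was called higher, Slc25a45 (0.31, limma adjusted p = 0.0475), and 4 were called lower, beside 4.62% of all genes higher and 5.70% lower. The 4 lower carriers were Slc25a33 (-0.71, adjusted p = 0.0309), Slc25a38 (-0.44, adjusted p = 0.027), Slc25a44 (-0.41, adjusted p = 0.011) and Slc25a28 (-0.35, adjusted p = 0.0382). Against replicates 1 to 4 the differences of these 5 were 0.28, -0.08, -0.16, -0.11 and -0.01, none of them called. For Slc25a45 the call differed between the sets, while the sizes, 0.28 and 0.31, were close. The carriers called lower are 4 of the 5 that rose with casting. Both comparisons share the casted libraries, so high values there enter both, and the overlap is not separate support.

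**Figure D5:**
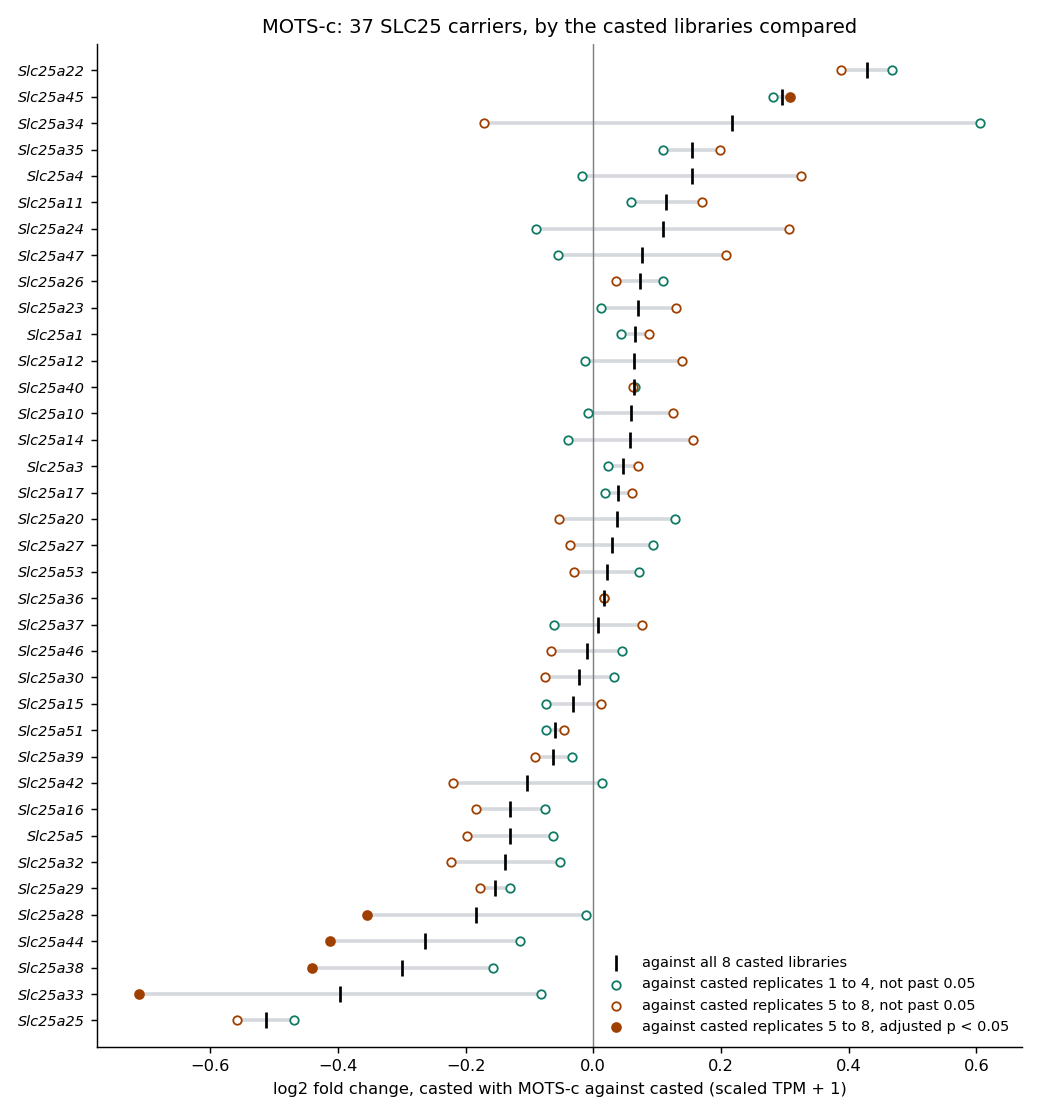
Log2 fold change of casted libraries with MOTS-c against casted libraries for 37 of the 38 tested carriers. The black tick uses all 8 casted libraries, the green circle replicates 1 to 4 and the brown circle replicates 5 to 8, with filled circles where the adjusted p was under 0.05. Filled circles appear only against replicates 5 to 8, for Slc25a45 on the right and for Slc25a28, Slc25a44, Slc25a38 and Slc25a33 on the left.

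Levels in casted replicates 1 to 4 overlapped those in replicates 5 to 8 for 35 of the 38 tested carriers. They did not overlap for Slc25a4, Slc25a20 and Slc25a34. The matching share over all genes was not computed, so this count shows no trait of the carriers. Slc25a4 was 892 to 1079 in casted replicates 1 to 4 and 714 to 811 in replicates 5 to 8. Its share of the family was 41.3 to 42.7% and 34.7 to 37.4%. Casting changed Slc25a4 by -1.18 with the first set and -1.53 with the second, both called. For Slc25a33 the changes with casting were 0.15 and 0.78, for Slc25a44 0.14 and 0.44, and for Slc25a28 0.57 and 0.91. With replicates 1 to 4 only, the rises of Slc25a33, Slc25a44 and Slc25a1 were not called, and with replicates 5 to 8 only, that of Slc25a1 was not called.

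Casted muscle with MOTS-c was also compared with uncasted muscle, which shares the uncasted libraries with the comparison of casting alone. Of the 38 carriers, 7 were called higher (background 26.0%) and 19 lower (background 24.7%). On the deposited scale these counts were 17 (background 60.0%) and 8 (background 6.94%). The 7 were Slc25a1, Slc25a14, Slc25a17, Slc25a24, Slc25a28, Slc25a38 and Slc25a45. Slc25a4 differed by -1.20 ± 0.11 (limma adjusted p = 3.86e-09), Slc25a23 by -1.01, Slc25a30 by -1.44 and Slc25a28 by 0.55. Slc25a25 was called lower here, at -1.13 ± 0.31 (adjusted p = 0.00385), and also on the deposited scale (-0.70, adjusted p = 0.0353). Slc25a22 (-0.33, adjusted p = 0.0711), Slc25a33 (0.06) and Slc25a44 (0.03) were not called against uncasted muscle. Of the 19 lower, some calls were lost in fits that left out 1 library, those of Slc25a42 (12 fits), Slc25a36 (10 fits) and Slc25a37 (without MOTS-c replicate 7). Slc25a10, not among them, was called lower without MOTS-c replicate 2 or 6. Of the 7 higher, the calls of Slc25a14 (uncasted replicate 3, 5 or 7), Slc25a17 (uncasted replicate 1), Slc25a24 (uncasted replicate 5 or 8, MOTS-c replicate 3, 4 or 6), Slc25a38 (MOTS-c replicate 6) and Slc25a45 (uncasted replicate 1, 3 or 4, MOTS-c replicate 2 or 7) were lost without the library named, and Slc25a22 was called without uncasted replicate 1, 2 or 7.

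The ratios within libraries were compared for MOTS-c in the same way. In exact permutation tests 0 of 9 ratios differed between MOTS-c and casted libraries, with a smallest adjusted p of 0.17. For Slc25a4 to Slc25a5 the difference was 0.29 (exact permutation p = 0.16). Against uncasted libraries 5 of 9 ratios were called. The ratio of Slc25a4 to Slc25a5 differed by -1.22, that of Slc25a28 to Slc25a37 by 0.83, that of Slc25a20 to Slc25a29 by 0.79, that of Slc25a39 to Slc25a40 by -0.47 and that of Slc25a24 to Slc25a25 by 1.60 (adjusted p from 0.0014 to 0.0163). Slc25a24 was 0.0196 to 0.142 times as high as Slc25a25 in uncasted libraries, with a median of 0.0238, and 0.0404 to 0.204 times as high with MOTS-c, with a median of 0.086, and these ranges overlapped.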

How the data were processed

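Per the labels' protocols, TRIzol and a column kit gave the RNA, from which poly-adenylated RNA was captured. The authors deposited TPM for each library. STAR, RSEM, FastQC and DESeq2 are named, with the build GRCm38.p6, per the submitters' processing notes, and their roles, versions and the strand setting are not given in the sources used here. Each TPM column has the same total, so depth is unknown and no counting interval is given. Here TPM were scaled by an unweighted trimmed mean of log ratios (30% of ratios and 5% of levels trimmed at each end). Genes with TPM of at least 0.5 in 8 or more libraries, 14690 in all, were fitted with limma 3.58.1 (R 4.3.3, mean-variance trend) on log2(scaled TPM + 1), with 24 libraries in 1 fit of 3 group means, and the model was tested on simulated data. Pair ratios used deposited TPM and exact permutation tests. Symbols and coordinates are from GENCODE M21, near-copies from blastn 2.17.0 (90% identity over 80% of a transcript). Full values are given for the 5 rises and the 8 largest falls with casting, of which 1 is not reported here, and for 8 carriers fixed by role. The members, lists and pairs were chosen with earlier results of these data known. Protein sequences were not used here. At most 1.34% of genes had equal values in any 2 libraries. Alternatives were the deposited scale, median-of-ratios scaling, a pseudocount of 0.1, no filter, 2 groups per fit, a replicate block, leaving out each library, and each set of 4 casted replicates.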

Additional observations from a re-analysis of the deposited data

Results flagged for a closer look

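Of 114 sets of 8 values (38 carriers in 3 groups), 11 held a library whose gap to the nearest of the others, divided by the whole range, both in log2(scaled TPM + 1), was above Dixon's 95% critical value. Chance flags about 1 in 20 such sets. In casted libraries with MOTS-c, replicate 5 was highest for 3 carriers, Slc25a4 (1499, others 783 to 991), Slc25a11 (155, others 108 to 122) and Slc25a36 (29.3, others 18.3 to 21.6). These are scaled values, the deposited TPM divided by a scaling factor. The factor of replicate 5 was 0.89, the lowest of its group (others 1.05 to 1.21), so its scaled values stand higher relative to the others than its deposited ones. Replicate 6 of that group was lowest for Slc25a20 (40.7) and highest for Slc25a46 (27.9). Replicate 3 was lowest for Slc25a27 (5.05), and replicate 8 was highest for Slc25a39 (30.6).

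Casted replicate 4 was highest for Slc25a11, at 127 (others 102 to 111), and its scaling factor, 0.997, was also the lowest of its group. Uncasted replicate 1 was lowest for Slc25a25, at 25.0 (others 90.5 to 126). Uncasted replicate 2 was highest for Slc25a35, at 4.80 (others 3.37 to 3.93), and uncasted replicate 7 was lowest for Slc25a15, at 7.07 (others 7.67 to 8.13).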

How the results depend on the processing

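Scaling was the choice that moved the carrier counts most. On deposited TPM, casting gave 20 carriers higher and 7 lower, and casting with MOTS-c gave 17 and 8. There Slc25a3 changed by 0.15 for casting and 0.11 for casting with MOTS-c, and Slc25a20 by 0.39 and 0.35. The cause was not tested. Median-of-ratios scaling, a pseudocount of 0.1 and 2 groups per fit changed no call of the carriers given in full. The labels do not pair the mice by number. Deviations of same-numbered libraries correlated with a median r of 0.04 over 24 pairs, 6 of them over 0.1. Libraries of different number had a median r of -0.005 over 168 pairs, 27 of them over 0.1. In 14 of 48 cases a library correlated best with its own number, which 1 of the 8 libraries of another group carried. This is a hint of pairing from the data only. With the replicate block, 3 carriers changed their call, Slc25a25 with casting (-0.62, limma adjusted p = 0.0134 against 0.0934), Slc25a34 with casting (-0.36, 0.0377 against 0.0506) and Slc25a42 with casting and MOTS-c (-0.22, 0.0782 against 0.0458), and no other carrier did. Without 1 library, casting gave 4 to 6 carriers higher and 18 to 21 lower, MOTS-c 0, and casting with MOTS-c 5 to 7 and 16 to 20. Calls changed in at least 1 such fit for 8 carriers with casting and 10 with casting and MOTS-c. Against casted replicates 5 to 8 only, MOTS-c gave 1 carrier higher and 4 lower, where 4.62% and 5.70% of all genes were called. Fewer libraries enter these fits. For ratios with casting, Slc25a33 to Slc25a36 was 0.41 with casted replicates 1 to 4 only, Slc25a10 to Slc25a11 was 0.45 and 0.36 with replicates 1 to 4 and 5 to 8, and Slc25a39 to Slc25a40 was -0.35 and -0.30, and -0.22 with 1 added to both TPM, none past the threshold. Without 1 library, the ratio differences with casting ran from -0.38 to -0.26 for Slc25a39 to Slc25a40 and from 0.71 to 1.25 for Slc25a24 to Slc25a25. Those with casting and MOTS-c ran from -0.29 to -0.11 for Slc25a16 to Slc25a42 and from 0.29 to 0.49 for Slc25a10 to Slc25a11, which were called without MOTS-c replicate 6 (adjusted p = 0.0206) and 5 (0.0322), in that order. The depth is unknown, so no limit from counting can be given for the 9 carriers that were not tested.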
